A study of Mus musculus with 5 samples.

Results

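The broadest stretches of elongating RNA Polymerase II in wild-type Th2 cells were the 606 enriched intervals of 25 kb or more in the Parp14+/+ library, out of 11692 intervals called there. These intervals were selected on their length in that library alone, so their length and their unbroken state in Parp14+/+ are the rule itself and not a result, and every comparison described here starts from regions that were whole in 1 library. They were 5.18% of the Parp14+/+ intervals and held 26.8 Mb, or 27.4%, of the 98.1 Mb that the intervals of that library covered. Lengths ran from 25050 to 218400 bp with a median of 35550 bp. At the limit, the 5 intervals just inside measured 25050 bp with Parp14+/+ summits from 9 to 21, and the 3 just outside measured 24750 bp with summits from 13 to 24.

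The study asked which genes of Th2 cells depend on PARP-14, a poly ADP-ribose polymerase, and on ADP-ribosyltransferase activity, which the inhibitor PJ34 blocks. RNA Polymerase II phosphorylated at serine 2 was mapped by ChIP-Seq in 1 library each of Parp14+/+, Parp14+/+ + PJ34, Parp14-/- and Parp14-/- + PJ34 cells. All 4 cultures were naive CD4+CD62L+ T cells from the spleens of C57BL6 mice, activated for 3 days through CD3 and CD28 under Th2 conditions with IL-4 at 10 ng/ml and an antibody to IFN-γ, then expanded for 4 days in IL-2 at 50 U/ml with IL-4. The Parp14+/+ cells carried the intact gene, the Parp14-/- cells lacked it in every cell, and the labels put PJ34 at 10 µM where it was given. The knockout was not limited to T cells, and how many mice went into a culture is not given in the sources used here. With 1 library per condition no difference between conditions has a replicate check, and no test between conditions was run.

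Serine 2 of the repeated tail of RNA Polymerase II becomes phosphorylated as the enzyme moves from initiation into productive elongation. This form is therefore found over gene bodies and past the poly(A) site more than at promoters, and on a long, busy gene it makes a wide block of signal. A window-based caller joins such signal into an interval, and a weak stretch inside the gene breaks it into pieces. The summit height of an interval is the largest number of overlapping fragments at a point inside it.

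As checks of the labels, the bases of Parp14 under an interval numbered 22873 and 20836 in the Parp14+/+ cultures without and with PJ34, and 2686 and 3286 in the matching Parp14-/- cultures. The average peak height of Parp14 in the gene table differed less, at 8, 11, 6.67 and 6.67 in the same order. All 7 T cell markers examined and all 7 Th2 markers had an interval in Parp14+/+. In the other 3 libraries it was 6, 5 and 5 of the T cell markers and 7, 6 and 6 of the Th2 markers, where Il5 had none in either Parp14-/- library. Of the 3 Th1 markers in the gene table (Ifng, Tbx21 and Il12rb2) all 3 had an interval in every library, and of the 4 B cell markers only Cd79a did. The Parp14+/+ interval of Il12rb2 also held Serbp1. In a bulk culture, fewer cells that transcribe a gene and less polymerase per cell cannot be told apart. The 4 libraries had 11692, 12014, 10228 and 8841 intervals over 98.1, 82.4, 73.8 and 65.5 Mb in the order given above, with a median interval height of 9 in each.

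The sequences upstream of 6 genes are shown, picked among single-gene broad intervals that hold the start of their gene and met the conditions below. By length they are the 3 longest of these (Nfkb1, Runx1 and Ell2). By another measure they are the 3 with the lowest covered share in Parp14-/- (Ankrd17, Cyth4 and Emp1). Each is the 250 bases before the deposited gene start, read 5′ to 3′ on the strand of the gene from NCBIM37, the assembly of mm9, and only windows with no annotated exon and with an annotated transcript start close to the deposited one were considered. Capitals mark CpG dinucleotides.
Nfkb1, upstream of its start, chr3:135354512-135354761, minus strand: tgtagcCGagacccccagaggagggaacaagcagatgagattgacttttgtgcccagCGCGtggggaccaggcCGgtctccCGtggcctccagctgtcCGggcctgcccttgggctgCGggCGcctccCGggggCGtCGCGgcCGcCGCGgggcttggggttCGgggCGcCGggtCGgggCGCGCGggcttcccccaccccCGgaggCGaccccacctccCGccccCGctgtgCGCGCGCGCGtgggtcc
Runx1, upstream of its start, chr16:92697574-92697823, minus strand: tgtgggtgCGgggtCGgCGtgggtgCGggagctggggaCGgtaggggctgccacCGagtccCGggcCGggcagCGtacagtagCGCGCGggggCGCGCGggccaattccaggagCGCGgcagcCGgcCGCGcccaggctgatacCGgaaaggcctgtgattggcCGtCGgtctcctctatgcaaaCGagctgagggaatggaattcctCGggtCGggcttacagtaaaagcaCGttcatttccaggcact
Ell2, upstream of its start, chr13:75844682-75844931, plus strand: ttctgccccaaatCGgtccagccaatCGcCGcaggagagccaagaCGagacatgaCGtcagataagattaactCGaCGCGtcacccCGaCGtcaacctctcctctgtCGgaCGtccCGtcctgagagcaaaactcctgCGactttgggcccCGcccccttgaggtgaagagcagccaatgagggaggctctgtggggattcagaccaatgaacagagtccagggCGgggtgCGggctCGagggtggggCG
Ankrd17, upstream of its start, chr5:90795212-90795461, minus strand: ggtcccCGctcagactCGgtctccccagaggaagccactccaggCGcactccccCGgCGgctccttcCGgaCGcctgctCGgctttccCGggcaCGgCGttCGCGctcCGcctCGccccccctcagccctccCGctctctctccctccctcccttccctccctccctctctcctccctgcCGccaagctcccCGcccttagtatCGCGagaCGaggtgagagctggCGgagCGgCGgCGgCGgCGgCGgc
Cyth4, upstream of its start, chr15:78427227-78427476, plus strand: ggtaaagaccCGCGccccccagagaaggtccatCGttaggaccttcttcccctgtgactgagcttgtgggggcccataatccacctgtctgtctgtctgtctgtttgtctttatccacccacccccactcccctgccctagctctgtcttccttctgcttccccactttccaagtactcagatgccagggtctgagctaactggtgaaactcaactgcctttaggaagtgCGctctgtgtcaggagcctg
Emp1, upstream of its start, chr6:135312699-135312948, plus strand: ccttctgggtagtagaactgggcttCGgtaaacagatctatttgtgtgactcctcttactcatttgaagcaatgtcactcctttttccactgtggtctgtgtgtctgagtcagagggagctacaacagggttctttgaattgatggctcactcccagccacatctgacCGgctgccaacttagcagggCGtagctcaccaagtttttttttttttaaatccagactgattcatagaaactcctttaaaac
Nfkb1, Runx1, Ell2 and Ankrd17 held 31, 27, 19 and 28 CpG in these windows, and Cyth4 and Emp1 held 4 and 3. Over the 781 windows of genes counted in broad intervals the median was 19 CpG, beside 16 over 11606 windows of listed genes. A TATAAA on either strand occurred in 6.53% of the former and 7.15% of the latter. Sites of STAT6 have TTC and GAA with 3 or 4 bases between, a pattern that matches itself on both strands. With any 4 bases between, it occurred in 4.23% and 4.62% of the windows, and in none of the 6 shown. With any 3 between, it occurred in 4.23% and 5.82%, and of the 6 windows only that of Emp1 held it, at 2 places. The GC content of the broad intervals had a median of 44.0%, beside 44.6% for Parp14+/+ intervals under 15 kb.

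Broad intervals lay mostly on 1 long gene. By the coordinates of the deposited gene table, where a gene counted if at least 1 kb or at least 50% of it lay inside, 370 intervals held a single gene, 222 held a run of genes and 14 held no listed gene. The class depends on which genes are listed, and the gene made up at least 50% of the interval in 346 of the 370. The single-gene intervals fell on 298 distinct genes with a median length of 59055 bp, beside 17193 bp for all 11608 listed genes. As many as 54 of these genes carried 2 or more broad intervals: Itpr1, a calcium release channel, had 6 and Cblb, an E3 ligase that restrains T cell receptor signals, had 4. Single-gene and run intervals had median lengths of 36675 and 34650 bp, and their Parp14+/+ summits had medians of 17 and 23. Both were above the median of 9 over all Parp14+/+ intervals. The intervals were chosen on length in this same library, so neither these summits nor the longer genes are independent of the rule.

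The position on the single gene differed from interval to interval. The interval held the gene end alone in 113, the start alone in 42, both in 97 and neither in 118. Where it held the end, it ran past it by a median of 9606 bp and at most by 40339 bp, and where it held the start it began a median of 1485 bp before it. The Parp14+/+ summit lay past the gene end in 145 of the 370 and within 1 kb of the gene start in 20. In Parp14+/+ + PJ34 the summit was near the start in 20 of the 362 with a summit inside the interval. For Parp14-/- it was 32 of 360, and for Parp14-/- + PJ34 35 of 367. The summit of another library fell within 1 kb of that of Parp14+/+ in 119 for Parp14+/+ + PJ34, 138 for Parp14-/- and 129 for Parp14-/- + PJ34, so in most of these intervals the highest point lay more than 1 kb away.

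Runs were short in gene number: 171 held 2 genes, 43 held 3, 4 held 4 and 4 held 5. Genes of both strands occurred in 161 runs and of 1 strand in 61. Among the 285 pairs of neighbours in a run, 148 were convergent, 100 pointed the same way and 37 were divergent. The stretch between neighbours, present in 248 pairs, was covered from end to end in Parp14+/+ by the rule. It was still covered end to end in 223 of 248 in Parp14+/+ + PJ34, in 208 in Parp14-/- and in 205 in Parp14-/- + PJ34. All genes of a run, as far as they lay in the interval, were held in 1 piece in 52, 38 and 29 of the 222 runs.

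The 14 intervals with no listed gene were not empty of genes. In the GENCODE vM1 annotation 7 of them overlapped a coding gene by the same rule: Nek6, Gnb1, Phxr4, Usp34, Sept9 and, in 2 intervals, Runx1. One more, chr14:54801001-54855750 (54750 bp, Parp14+/+ summit 42), spanned annotated joining segments and the constant gene Trac of the T cell receptor alpha chain, and was covered to 98.9% in Parp14+/+ + PJ34 and to 100% in both Parp14-/- libraries.

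Broad intervals were largely retained in the other 3 libraries. The covered share, which is the percentage of the bases of a Parp14+/+ interval that lie in an interval of the other library, had a median of 94.3% for Parp14+/+ + PJ34, of 93.3% for Parp14-/- and of 88.6% for Parp14-/- cells given PJ34. Order-statistic 95% intervals over the 606 intervals were 93.2 to 95, 92.0 to 94.4 and 85.8 to 90.1. These ranges are for the median over intervals of 1 library and not for the error of a condition. The intervals themselves spread more widely, with quartiles of 85.3% and 98.6%, 80.7% and 98.0%, and 69.3% and 96.9%. At least 50% was covered in 598 intervals in Parp14+/+ + PJ34, beside 56.7% of all Parp14+/+ intervals. In Parp14-/- 569 were covered to that extent, beside 48.2%. In Parp14-/- + PJ34 there were 532, beside 42.3%. As shares of the 606 these are 98.7%, 93.9% and 87.8%. Length itself moved with cover: intervals of 15 to 25 kb had medians of 85.0%, 80.9% and 71.8%, and the 146 intervals of 50 kb or more had 98.0%, 96.9% and 96.2%.

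**Figure D1:**
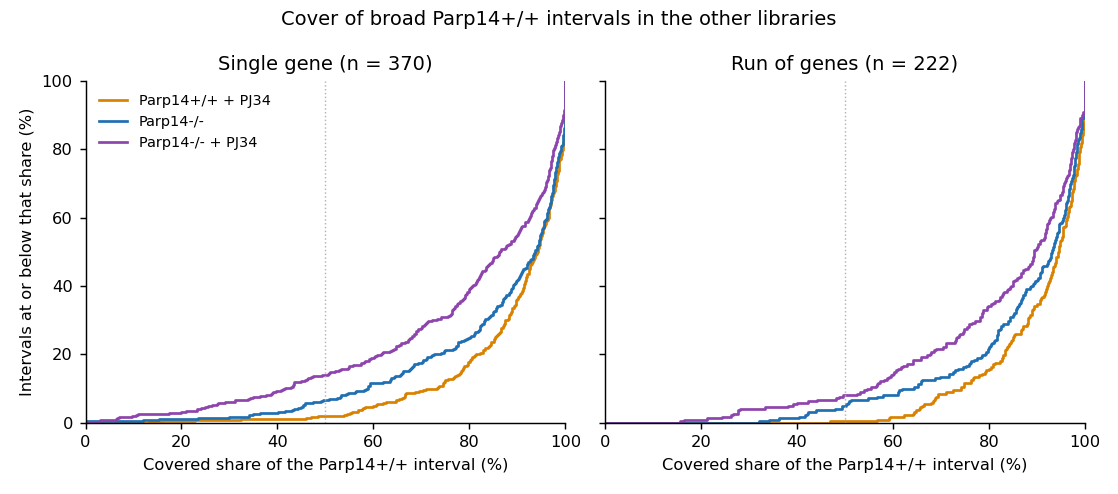
Cumulative share of broad Parp14+/+ intervals (vertical axis, %) against the share of their bases covered in another library (horizontal axis, %), for 370 single-gene intervals (left) and 222 runs (right). The Parp14-/- + PJ34 line lies above the others over most of the range in both panels, and the dotted line marks 50%, below which 52 single-gene intervals and 18 runs lay in that library.

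The median cover of single-gene intervals and of runs was 94.1% and 94.5% in Parp14+/+ + PJ34, 93.6% and 93.1% in Parp14-/-, and 86.3% and 89.4% in Parp14-/- + PJ34. The order-statistic intervals of the 2 classes overlapped in each library. The longest single piece took a median of 61.4% of a single-gene interval and 77.1% of a run in Parp14+/+ + PJ34, 58.9% and 66.2% in Parp14-/-, and 51.4% and 61.0% in Parp14-/- + PJ34. In the runs, the covered shares of bases were 93.8% outside and 91.8% inside genes in Parp14+/+ + PJ34, 90.8% and 88.6% in Parp14-/-, and 88.3% and 84.3% in Parp14-/- + PJ34. In the single-gene intervals they were 93.0% outside and 90.6% inside, then 87.0% and 87.8%, then 80.4% and 81.3%, so the order was the other way in both Parp14-/- libraries.

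By pattern, 520 of the 606 intervals were at least 50% covered in all 3 libraries. A further 43 fell below that in Parp14-/- + PJ34 alone, 27 in both Parp14-/- libraries, 8 in Parp14-/- alone and 4 in Parp14+/+ + PJ34 alone. In 2 intervals only Parp14-/- stayed above 50%, and 2 were below it in all 3. Counted by bases, 75.3% of the 26.8 Mb were covered in all 3 other libraries and 2.94% in none.

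The losses were set side by side among the 3 other libraries, none of which chose the intervals. Cover was higher by 10 points or more in Parp14+/+ + PJ34 than in Parp14-/- in 126 intervals and lower in 55, beside 33.7% and 21.2% of all Parp14+/+ intervals. Against Parp14-/- + PJ34, Parp14+/+ + PJ34 was higher in 216 and lower in 24, beside 38.7% and 15.7%. Parp14-/- was above Parp14-/- + PJ34 in 167 and below it in 35, beside 28.2% and 17%. As shares of the 606, the counts are 20.8% and 9.08%, 35.6% and 3.96%, and 27.6% and 5.78%, each below the share over all intervals.

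Most broad intervals were broken as called, and fewer once short gaps were joined. In Parp14+/+ + PJ34 408 of the 606 (67.3%) lay in 2 or more pieces, beside 18.5% of all Parp14+/+ intervals, in Parp14-/- 415 (68.5%) beside 14.8%, and in Parp14-/- + PJ34 419 (69.1%) beside 12.8%. A short interval has little room for a break, so these backgrounds are of another length. In 15 to 25 kb intervals the shares were 58.8%, 50.2% and 48.1%. With pieces joined across gaps of up to 1 kb, the shares of broad intervals in 2 or more pieces were 35.5%, 35.3% and 39.9%. The largest numbers of pieces were 11 (the longer of 2 intervals of Ankrd17), 14 (Crtam and Ubash3b) and 10 (again Crtam and Ubash3b) in the 3 libraries. The whole interval was covered in 87, 74 and 52 cases. No piece at all was found in 0, 2 and 1.

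Most breaks were short. The smallest distance between intervals in the Parp14+/+ library was 600 bp, and the gaps inside broad intervals had a median of 750 bp in each of the other libraries (930, 959 and 951 gaps). The study's caller joined windows across gaps up to a set size, so shorter breaks could not appear. The median lay close to that floor. Gaps of at most 1 kb were 68.1%, 67.5% and 61.2% of them. Gaps of 5 kb or more numbered 45, 56 and 108, and the longest were 14550, 26850 and 30450 bp. Uncovered ends took 3.57%, 5.71% and 9.78% of the bases, and gaps between pieces 4.999%, 5.91% and 7.45%. The GC content of gaps to 1 kb was 42.5%, 42.5% and 42.8%, beside 44.5% in covered bases of each library.

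An interval chosen for being whole in 1 library can stay whole or be broken in another, but cannot become less broken. The rule thus favours 1 direction, so the choice was also reversed. The 384 intervals of 25 kb or more in Parp14+/+ + PJ34, the 399 in Parp14-/- and the 330 in Parp14-/- + PJ34 were covered in Parp14+/+ to medians of 97.9%, 98.3% and 98.3%, and 34.6%, 34.6% and 31.2% of them lay there in 2 or more pieces. Chosen in Parp14-/- and read in Parp14+/+ + PJ34, the median was 97.2% with 51.4% in pieces, and chosen in Parp14+/+ + PJ34 and read in Parp14-/- it was 96.5% with 54.9%. Breaks were thus present in every direction and fewest in Parp14+/+, which has the largest covered length of the 4 libraries. How far this follows from the total signal called in a library was not tested. Broad intervals that were neighbours also showed breaks of Parp14+/+ itself: 60 pairs lay within 3 kb of each other, 57 of them on a shared gene, and the gap was bridged in 33 in Parp14+/+ + PJ34, in 29 in Parp14-/- and in 24 in Parp14-/- + PJ34. At Fyn, a Src family kinase, the 600 bp between its 2 broad intervals were covered in all 3.

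Cover and breaks moved with signal. In the 159 intervals with Parp14+/+ summits of 7 to 14, median cover was 86.3%, 81.7% and 70.6% in Parp14+/+ + PJ34, Parp14-/- and Parp14-/- + PJ34, and 88.1%, 84.3% and 80.5% were in pieces. In the 152 with summits of 28 to 172, median cover was 98.7%, 97.7% and 95.7%, and 41.4%, 41.4% and 43.4% were in pieces. Of the intervals under 50% covered in Parp14-/-, 26 of 37 had summits of 7 to 14. In Parp14-/- + PJ34 it was 45 of 74.

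**Figure D2:**
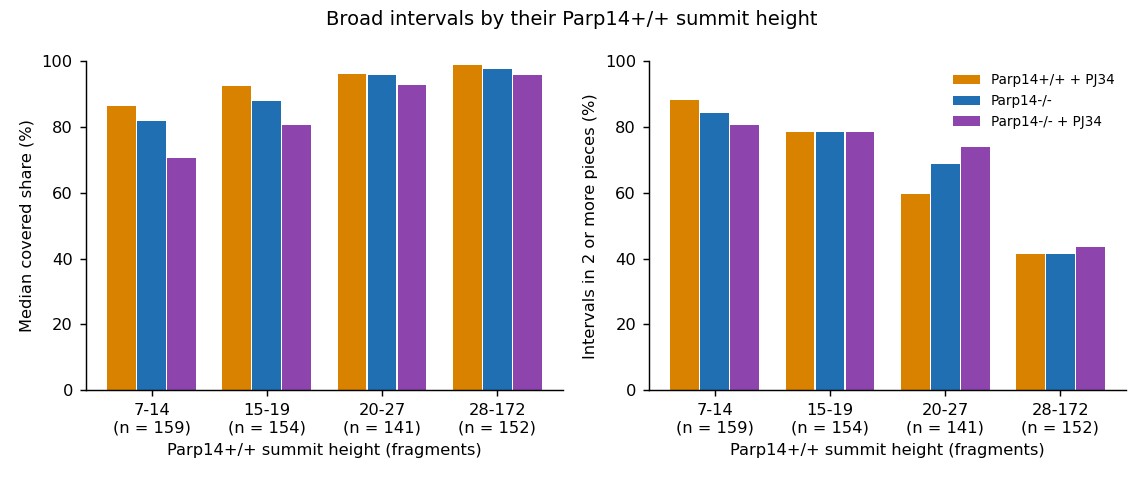
Median covered share (left, %) and share of intervals in 2 or more pieces (right, %) for the 606 broad intervals in 4 classes of Parp14+/+ summit height (horizontal axis, overlapping fragments), with 1 bar per other library. Cover rises from the class of 7 to 14 to the class of 28 to 172 in each library, and the share in pieces falls to between 41.4% and 43.4%.

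The 10 longest intervals kept most of their bases in every library. Myo10, an unconventional myosin, had the longest, chr15:25551301-25769700, of 218400 bp. Parp14+/+ + PJ34 covered 99.8% of it in 1 piece, Parp14-/- 94.8% in 10 pieces and Parp14-/- + PJ34 97.3% in 8 pieces, with summits of 34, 31, 26 and 21 from Parp14+/+ to Parp14-/- + PJ34. Prkch, protein kinase C eta, spanned 201300 bp and was covered to 94.8%, 98.4% and 95.5%. Fyn followed with 158100 bp and 96.9%, 99.6% and 99.6%. Abtb2 with Nat10, an RNA acetyltransferase, made the longest run at 153150 bp, covered to 99.6%, 99.5% and 95.7%. Cdk17 and Elk3 shared 139950 bp, covered to 98.0%, 97.7% and 96.4%. Etv6, an ETS family repressor, spanned 133500 bp and stayed above 98% in all 3 (99.1%, 99.4% and 98.3%).

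Chst11, a chondroitin sulfotransferase, spanned 129450 bp and broke into 13 pieces in Parp14-/- with 90.7% covered, against 4 pieces in each PJ34 library. Zbtb38, a zinc finger protein that binds methylated DNA, had the lowest cover of the 10 in both Parp14-/- libraries: of its 116550 bp 95.9%, 84.0% and 73.2% were covered. Inpp4b, a phosphoinositide phosphatase, was covered to 98.7%, 100% and 99.5% of 114600 bp.

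**Figure D3:**
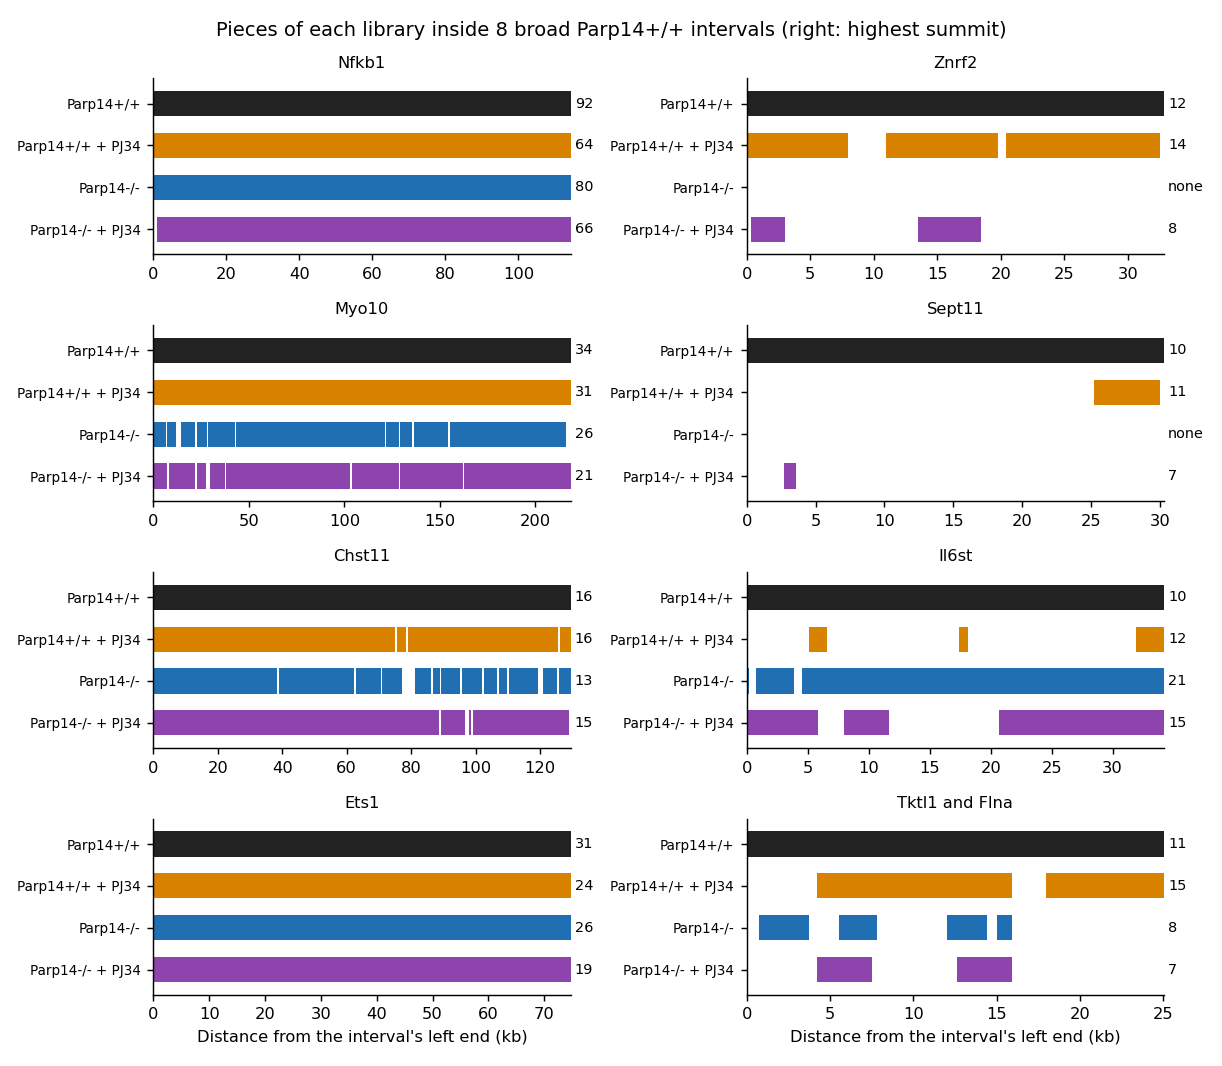
Pieces of each library inside 8 broad Parp14+/+ intervals, against the distance from the left end of the interval (kb), with 1 row per library and the highest summit of the overlapping pieces (fragments) at the right. Nfkb1 and Ets1 are solid or nearly solid in all 4 rows, Myo10 and Chst11 show narrow breaks, and Znrf2 and Sept11 have no piece in Parp14-/-. For Il6st the summits of 12, 21 and 15 lie outside the interval.

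Some long intervals stayed whole or nearly so in every library. Nfkb1, which encodes the p105 and p50 NF-κB subunit, was unbroken over chr3:135241201-135355500 (114300 bp) with cover of 100%, 100% and 99.2% and summits of 92, 64, 80 and 66. Ets1, a lymphocyte transcription factor, was covered to 100% of its 74700 bp in all 3, with summits of 31, 24, 26 and 19. Man1a, a mannosidase of the Golgi, had 3 broad intervals, of which the longest reached 100%, 100% and 99.1% of its 65850 bp with summits of 29, 32, 32 and 32. Gm14005 was whole in Parp14-/- (78900 bp) and had summits of 23, 20, 48 and 33. In all, 51 single-gene intervals and 22 runs were fully covered in Parp14-/-. The longest of these runs held Satb1, a chromatin organiser of T cells (109650 bp, summits of 89, 75, 99 and 77), then the microRNA genes Mir23b and Mir27b with Fancc (97650 bp), Aph1c and Rab8b (69000 bp), Nup107 and Rap1b (54600 bp) and Pgs1 and Dnahc17 (52050 bp).

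At the other end, Sept11, a septin GTPase, had an interval of 30300 bp (chr5:93526351-93556650) that had 15.8%, 0% and 2.97% of its bases covered in the 3 other libraries, with a Parp14+/+ summit of 10. Znrf2, an E3 ubiquitin ligase, had 2 broad intervals. The one at chr6:54774451-54807300 was covered to 88.1%, 0% and 23.3%, and the one at chr6:54818551-54859950 to 95.7%, 12.0% and 9.78%. Brd1, a bromodomain protein of a histone acetyltransferase complex, had cover of 80.3%, 15.2% and 6.28%. Slco3a1, an organic anion transporter, had 64.6%, 23.5% and 24.1%. Parp14+/+ summits at these 4 genes were 10 to 13, with heights of 7 to 9 where a piece was left in Parp14-/- or Parp14-/- + PJ34.

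Among the runs, LOC676882 with the translation factor gene Eif4b was lowest in Parp14-/- at 32.1%, beside 74.1% in Parp14+/+ + PJ34 and 48.2% in Parp14-/- + PJ34. Tktl1 and Flna, which encodes filamin A, had 74.9%, 34.1% and 26.3%. The remaining 3 of the lowest 5 were Nrd1 and Osbpl9 (65.5%, 36.3% and 28.1%), Glud1 with LOC100041231 (82.7%, 40.5% and 24.3%) and Rock2 with Pqlc3 (80%, 41.7% and 40%). Cover was lower in both Parp14-/- libraries than in Parp14+/+ + PJ34 in each of these 5 runs, which were chosen on the Parp14-/- value.

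The reverse was rarer and is given for intervals picked after their values were seen. Il6st, the gp130 chain shared by IL-6 family receptors, had 13.2%, 96.5% and 67.5% covered. The second broad interval of Prkcq, protein kinase C theta, had 61.9%, 100% and 100%. Tiparp, a PARP family member, had 54.4%, 89.0% and 87.9%. In the PJ34 pair of Parp14-/- cells, 1 of 2 intervals of Nfat5 went from 85.6% to 20.9%, 1 of 2 at Rnf152 from 65.4% to 2.75%, and Ece1 from 58.9% to 0%. In the opposite direction Nktr had 34.1% without and 81.2% with PJ34, and 87.1% in Parp14+/+ + PJ34.

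Along the single genes, cover rose from start to end. The 298 genes were divided into 10 equal parts, and the mean covered share went from 78.2% in part 1 to 93.2% in part 10 in Parp14+/+, which chose the genes. In the other libraries it went from 68.0% to 88.2% in Parp14+/+ + PJ34, from 68.0% to 83.1% in Parp14-/- and from 65.5% to 79.4% in Parp14-/- + PJ34. In Parp14-/- + PJ34 part 2 was the lowest, at 63.3%. The first 5 kb past the gene end were covered to 93.1%, 92.4%, 89.4% and 86.3% in the 4 libraries, at or above part 10 but for Parp14+/+, where the values were nearly equal. From 5 to 10 kb past the end the means were 69.5%, 72.2%, 63.9% and 57.7%, and the 5 kb before the start had 31.8%, 28.4%, 32.4% and 30.9%.

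**Figure D4:**
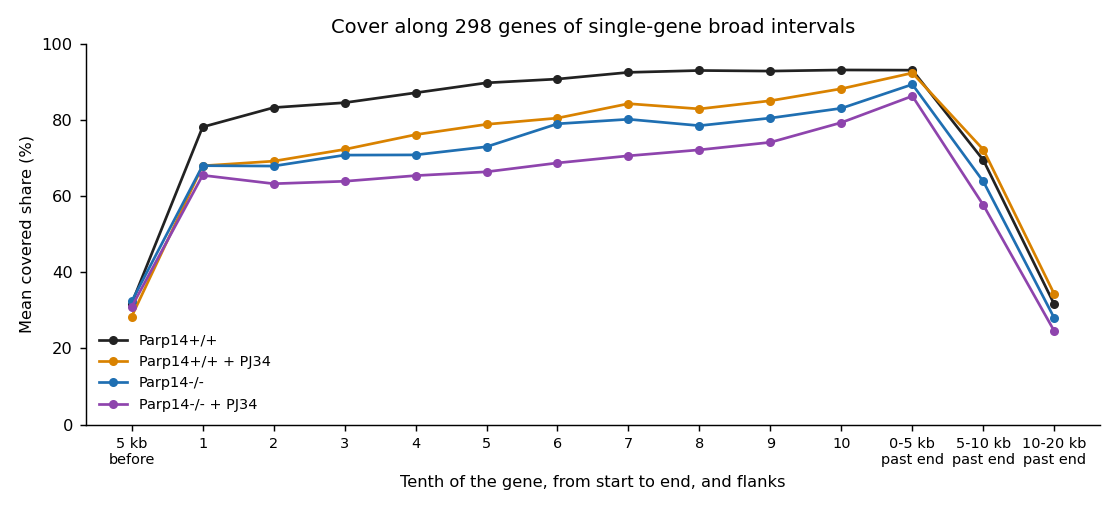
Mean covered share (vertical axis, %) of 298 genes of single-gene broad intervals in 10 equal parts from gene start to gene end and in their flanks, 1 line per library. Parp14+/+, which chose the genes, runs from 78.2% to 93.2%, Parp14-/- + PJ34 lies lowest inside the gene, and the lines come together upstream.

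Summit heights of broad intervals stayed near those of Parp14+/+ in 2 libraries and were lower in Parp14-/- + PJ34. The median ratio of the Parp14+/+ summit to that of the highest overlapping piece was 0.968 for Parp14+/+ + PJ34, 1.00 for Parp14-/- and 1.17 for Parp14-/- + PJ34 (order-statistic intervals 0.941 to 1, 0.953 to 1 and 1.125 to 1.2). Over all Parp14+/+ intervals with a piece in the other library the medians were 0.905, 0.938 and 1.06. In intervals of 15 to 25 kb, the nearest in length, they were 0.96, 1 and 1.125. The ratio was above 1.4 in 39 of 606, 54 of 604 and 150 of 605 broad intervals, beside 7.05%, 10.7% and 18.8% of all intervals, and below 0.7 in 55, 73 and 35, beside 18.9%, 20% and 12.6%. The order of the 2 counts turned round with summits inside the interval alone, an alternative chosen after seeing the data: 44 were above 1.4 and 34 below 0.7 for Parp14+/+ + PJ34, and 57 and 50 for Parp14-/-. It turned round likewise with pieces at least 50% inside (45 and 42, and 58 and 53). In Parp14-/- + PJ34, the 150 are 24.8% of the 605. Of the 15 to 25 kb intervals, 172 of 761 had a ratio above 1.4 to that library. The lower summits there were thus not particular to broad intervals. Among the libraries that did not choose the intervals, summits of Parp14-/- stood to those of Parp14-/- + PJ34 at a median of 1.18 (422 higher, 117 lower, 64 equal) and those of Parp14+/+ + PJ34 to Parp14-/- at 1.00 (282 higher, 273 lower, 49 equal). Over all Parp14+/+ intervals these medians were 1.13 and 1.00.

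A single height carries large counting error. With each height treated as a count, each ratio has a 95% interval (exact binomial, counting error only). Of 606, 604 and 605 broad intervals, it lay above 1 in 8, 5 and 20 and below 1 in 9, 26 and 12. Over all Parp14+/+ intervals the shares above 1 were 0.306%, 0.447% and 1.17%, and those below 1 were 1.9%, 3.55% and 2.55%. Part of the low ratios came from a piece that ran out of the broad interval and had its summit elsewhere, in 43, 44 and 33 cases: the smallest ratio to Parp14-/-, at Caprin1, set 20 against a summit of 82 outside the interval, where the highest summit inside was 21. The next lowest were Ankrd17 (18 against 44, with 11 inside), Mdfic (12 against 35, with 12 inside), Gpld1 with Mrs2 (10 against 29, with none inside) and Runx2 (8 against 21, with 10 inside). With summits inside alone, known in 596, 594 and 600 intervals, the counts below 1 were 3, 18 and 9, and those above 1 were the same.

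**Figure D5:**
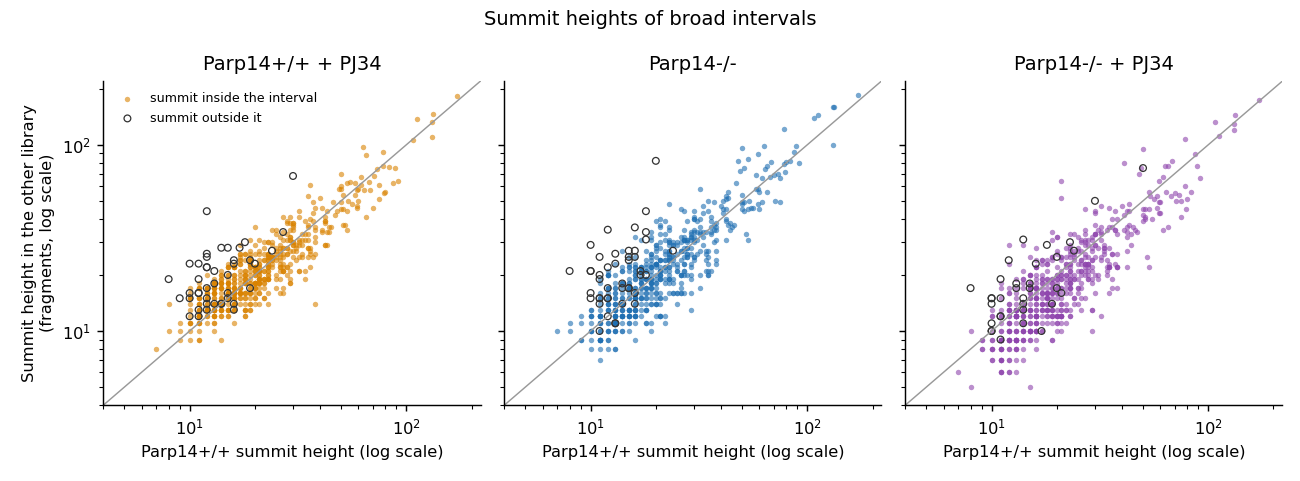
Summit height in each other library (vertical axis, fragments, log scale) against the Parp14+/+ summit height (horizontal axis, log scale) for the broad intervals, with filled points where the other summit lies inside the interval, open circles where it does not, and a line of equal heights. Most open circles lie above the line, and the Parp14-/- + PJ34 points lie below it more often than those of the other panels, with 150 of 605 at a ratio above 1.4.

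By the inside summits, the 5 intervals with a ratio to Parp14-/- above 1 were Slco4a1 (29 against 13), Glud1 (32 against 17), Rnf19b (53 against 31), Itgav with Fam171b (75 against 49) and Tnfsf8, the CD30 ligand (131 against 100). The ratios ran from 1.31 at Tnfsf8 to 2.23 at Slco4a1. Beside Slco4a1 and Glud1, the 5 highest ratios to Parp14-/- were at Gsn with Stom (22 against 11), Ywhag (19 against 10) and Riok3 (22 against 12), whose counting intervals held 1. Itgav, the integrin alpha V chain, was lower in all 3 other libraries, at 51, 49 and 41. Lower in Parp14+/+ than in Parp14-/- were, among the 18, the interferon-induced GTPase genes Gbp9 and Gbp4 (50 against 96), Prdm1, which encodes Blimp-1 (21 against 40), the nuclear receptor gene Nr4a3 in a run with LOC100040788 (59 against 89), Mcl1, an anti-apoptotic BCL-2 family member (49 against 72), the run of Jak2 (107 against 140) and Il2ra with Il15ra (112 against 145). Gbp9 and Gbp4 were at 95 in Parp14-/- + PJ34, and Jak2 was at 132. Mcl1 lay in a run with Adamtsl4. The 5 and the 18 are of 594 intervals with summits inside, beside 0.447% and 3.55% of all Parp14+/+ intervals by the highest overlapping piece. Whether these counts exceed those from counting error alone was not tested, so the genes named are not shown to differ.

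The highest Parp14+/+ summits of broad intervals were at Supt4h1, a subunit of the elongation factor DSIF, with Mir142 (172, then 182, 184 and 173), at the RNA helicase gene Ddx5 with Polg2 and Gm885 (133, then 147, 160 and 144), at Il4ra (132, then 110, 160 and 130), at Tnfsf8 (131, then 132, 100 and 120) and at Il2ra with Il15ra (112, then 138, 145 and 112). These 5 heights lay within 1.4 times of Parp14+/+ in each library. The lowest were at Atp10a (7, then 8, 10 and 6), Nktr (8), Runx2 (8), Huwe1 (8) and, with others, Hdac4 (9). This interval of Huwe1, an E3 ubiquitin ligase, was covered to 22.8%, 45.7% and 6.52%, and Hdac4 to 78.6%, 92.3% and 92.3%.

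Genes were also grouped by function. Of all 11608 listed genes, 809 (6.97%) lay in one, named by coordinates. Of 39 genes of the T cell receptor and costimulation 18 did, on 23 intervals, all at least 50% covered in each other library, with median cover of 97.8%, 98.5% and 98.3%. This list has longer genes than the table as a whole, with a median of 29978 bp. Cblb, Ptprc, which encodes CD45, and Prkcq each had more than 1 interval. Cd28, the costimulatory receptor, had summits of 21, 24, 20 and 16, and Themis, a thymocyte signalling adaptor, had 25, 17, 14 and 14. The run of Crtam and Ubash3b, the latter a phosphatase that damps receptor signals, was the most fragmented: 112500 bp in 9, 14 and 10 pieces with cover of 94%, 72.9% and 85.5%.

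Among cytokines and their receptors 7 of 38 were in broad intervals: Il4ra, Il2ra, Il7r, Il21r, Il12rb2, Il6st and Il10. Il10 with Mapkapk2 spanned 113250 bp with summits of 75, 61, 66 and 50 and stayed above 96% covered (99.5%, 96.7% and 98.9%). Il7r, the IL-7 receptor chain, had summits of 47, 42, 62 and 34 with at least 97.0% covered in each library. Il12rb2, a chain of the IL-12 receptor, lay in a run with Serbp1, which had summits of 37, 25, 30 and 23. The summit of a run is not assigned to a single gene of it. In the JAK, STAT and SOCS list 6 of 24 were included. Stat5a and Stat3 shared 82350 bp with summits of 59, 46, 48 and 49. The run of Cish, a SOCS family inhibitor, with Hemk1 had 87, 62, 92 and 89. All 5 intervals of the list were at least 90.4% covered in each library.

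Of the lineage and activation transcription factors 18 of 44 were in broad intervals, on 21 intervals that were all at least 50% covered in each library. Gata3, the Th2 lineage factor, lay in a run with 4930412O13Rik. This run had 31950 bp with summits of 60, 58, 45 and 43 and cover of 97.2%, 95.3% and 100%. Tbx21, the Th1 factor T-bet, had summits of 28, 22, 26 and 19. Irf4, needed for Th2 differentiation, had 59, 47, 58 and 43, and Batf had 36, 28, 33 and 26. Maf, which activates Il4, had 18, 21, 17 and 15. Tbx21 made up 44.9% of its interval and Maf 10.6%, and the summits lay inside the gene in only some of the libraries. Over the 21 intervals of the list, the Parp14+/+ summit was the higher in 13 and the lower in 6 against Parp14+/+ + PJ34, the higher in 9 and the lower in 11 against Parp14-/-, and the higher in 13 and the lower in 7 against Parp14-/- + PJ34. The median ratios were 1.06, 0.899 and 1.16. Satb1 and Prdm1 were among those lower than Parp14-/-.

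Chromatin and elongation factors accounted for 12 of 44 genes on 17 intervals. This list also has long genes, with a median of 67935 bp beside 17193 bp for all listed genes. Median cover was 95.3%, 92.3% and 82.2%, beside 94.3%, 93.3% and 88.6% over all 606 intervals, so it was lowest in Parp14-/- + PJ34 in both. In 2 or more pieces lay 15, 16 and 17 of the 17, beside 67.3%, 68.5% and 69.1% of all 606. Parp14+/+ summits in the list ran from 9 at Hdac4 to 46 at 1 interval of Chd7. Among all broad intervals with summits of 7 to 14, 88.1%, 84.3% and 80.5% were in pieces. Whether the breaks in the list go beyond those at like summits was not tested. Ell2, a subunit of the super elongation complex, spanned 104550 bp, of which 38341 bp lay past its end, with summits of 32, 25, 34 and 24. In the list of RNA processing genes 7 of 19 were included. Actin and adhesion genes gave 7 of 29, among them Lcp1, which encodes L-plastin, covered to 100% in all 3 with summits of 35, 53, 50 and 46. Gimap genes gave 3 of 8, in 1 run with summits of 19, 26, 26 and 31. Only Ncl of 18 ribosomal protein and translation genes was included, with 43, 34, 37 and 44, and none of 15 histone genes, whose median length was 1363 bp. Of 11 PARP family genes Tnks, which encodes tankyrase, was included, in a run with Dusp4 with summits of 41, 46, 50 and 80. Tiparp, described above, was not on that list.

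In the deposited gene table the average peak height of the 809 genes in broad intervals had medians of 20, 20, 20 and 17.5 in Parp14+/+, Parp14+/+ + PJ34, Parp14-/- and Parp14-/- + PJ34, beside 8, 8.33, 8 and 7.4 over all listed genes. These genes were chosen through long Parp14+/+ intervals, so the higher Parp14+/+ median is not independent of the rule.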

How the data were processed

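ChIP-Seq intervals of 4 libraries were analysed, 1 per condition. The authors aligned reads with ELAND, kept the same number of alignments per library and called intervals with SICER against Input on mm9. They deposited, for each interval, a signal: the height of overlapping fragments at its summit. The deposited gene table gives a signal per gene, an average peak height over its intervals. Of its columns, 8 belong to libraries not analysed here and were not used. The Input library, a mixture of both genotypes, was not analysed here. The labels give PJ34 at 10 µM to differentiated cells, while the study's methods describe culture with it at another dose.

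Interval starts fell on a grid of 150 bp. Coordinates are 1-based. Genes were counted as described above, with genes nested in another left out. Of the 809 genes, 710 were named by GENCODE vM1 coordinates (107 unlike the deposited symbol) and the rest by the deposited symbol. Cover, pieces and summits were computed with Python 3.11.15, numpy 2.4.6, pandas 2.3.3 and scipy 1.17.1. Cover and pieces, but not summits, were checked on simulated data with planted regions. Named genes were the 10 longest, the 5 single-gene and 5 run intervals with the highest and lowest cover in Parp14-/-, the 5 highest and lowest summits and summit ratios, and the listed genes. Members and lists were chosen with earlier results of these data known. A few genes that this rule names are not reported here.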

Additional observations from a re-analysis of the deposited data

How the results depend on the processing

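With 1 library per condition, no error between cultures is known. The ranges given reflect counting error, or the uncertainty of a median over intervals of 1 library. The authors made depth equal between libraries. No paired analysis was possible because each group holds 1 library. Of 100 alternatives, 66 stayed within the interval of the value or within 1.5 times of the count and 34 moved. A reversal was looked for only where single genes were split at the middle, which could only count as moved or reversed. No reversal was found there. The order of the counts above 1.4 and below 0.7 was not part of this tally, and it turned round as described above. Dividing heights by the library median, 9 of the 66, could not change a value because the medians are equal, which leaves 57. Joining Parp14+/+ intervals across gaps to 1 kb gave 932 broad intervals. With a minimum of 20 kb (884 intervals), at least 50% cover was found in 96.0%, 90.5% and 83.5% in Parp14+/+ + PJ34, Parp14-/- and Parp14-/- + PJ34, and median cover was 92.4%, 90.1% and 84.4%. Breaks in Parp14-/- + PJ34 were then 65.0%, and 73.8% with a minimum of 30 kb, where median cover in Parp14-/- was 94.4% and the share at least 50% covered in Parp14-/- + PJ34 was 90.7%. A threshold of 75% left 88.1%, 80.5% and 70.5%. Summed over bases, cover was 91.4%, 88.1% and 82.7%. Joining across gaps to 1 kb, the share in 2 or more pieces fell to 35.5%, 35.3% and 39.9%. Ratio limits of 1.2 and 0.83 gave 103, 132 and 277 above and 160, 165 and 84 below. Summits inside the interval, an alternative chosen after seeing the data, gave 34 below 0.7 for Parp14+/+ + PJ34. Counting a gene only where at least 50% of it lay inside, or where it took at least 50% of the interval, gave 463 single-gene intervals, 111 runs and 32 with no gene. GENCODE coding genes, also added after seeing the data, gave 377, 220 and 9. The 3′ part of the single genes, split at the middle, exceeded the 5′ part by 7.88, 11.3, 10.2 and 8.10 points in Parp14+/+, Parp14+/+ + PJ34, Parp14-/- and Parp14-/- + PJ34, against 14.98, 20.2, 15.1 and 13.8 from part 1 to part 10. The cause of these shifts was not tested.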
